A study of Mus musculus with 8 samples.

Results

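Ribosome footprints were set against total RNA, gene by gene, in wild-type mouse embryonic stem cells. The cells were of the J1 line, grown in 2i medium with LIF, which holds stem cells in a naive state, and were given cycloheximide, which stops elongating ribosomes, for 10 min before lysis. Wild type was measured by total RNA-seq in 2 libraries and by ribosome profiling, the sequencing of RNA that ribosomes shield from nuclease, in 2 libraries. For profiling, extracts were digested with RNase A and T1, 80S ribosomes were taken from a sucrose gradient, and fragments of 26 to 32 nt were cut from a gel. The other 4 libraries of the study come from cells of the same line with Mettl6 knocked out, from the single clone G6, under the same treatment, with 2 libraries of each kind. All 8 libraries share the medium and cycloheximide.

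Genes entered by the level of their RNA alone. The row of Rn45s, the precursor of ribosomal RNA, was dropped, each library was rescaled to the same total, and a gene was kept where both wild-type total RNA libraries together averaged 5 or more CPM (a gene's share of its library). This gave 10399 members of 23818 gene symbols, of which 10138 are coding, 166 long noncoding, 58 pseudogenes, 16 small noncoding and 21 without an annotated class. Just under the threshold lay Dnajc30 and Rwdd2b at 4.99 CPM, and just over it Msl3l2 and 9230114K14Rik at 5.01 CPM.

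Translation of an mRNA is mostly set by how often ribosomes start on it. Its coding sequence then carries ribosomes in proportion, so footprints divided by RNA are commonly used as a measure of ribosome load per transcript, although slow elongation also adds footprints. Upstream start codons, structured elements near the cap and binding proteins are known to lower initiation, while noncoding RNAs that stay in the nucleus meet no ribosomes. CPM values are not set to length, so a ratio here compares the library shares of 1 gene and not ribosomes per base.

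Stem cell markers checked the label. The 10 embryonic stem cell markers summed to 7170 and 7090 CPM in total RNA and to 8980 and 8340 CPM in footprints, with none at 0. The 8 fibroblast or feeder markers summed to 2.53 and 4.38 CPM in total RNA and to 13.2 and 12.9 CPM in footprints, and Col1a2, Col3a1, Postn, Lum and Dcn were at 0 in all 4 libraries. In bulk samples, fewer cells of a type and less RNA per cell cannot be told apart. Primitive endoderm markers, 6 in number, summed to 6.57 and 5.47 CPM in total RNA and to 22.7 and 17.6 CPM in footprints. The 5 neural markers summed higher, to 127 and 122 CPM in total RNA and to 157 and 185 CPM in footprints. Most of this was Nes, at 102.6 and 93 CPM in total RNA and at 100.8 and 102.8 CPM in footprints. The 5 epiblast or mesoderm markers summed to 49.6 and 46.5 CPM in total RNA and to 41 and 42.5 CPM in footprints. For 5 markers of 2-cell-like cells the sums were 6.63 and 8.45 CPM in total RNA and 4.74 and 9.63 CPM in footprints. Estimated depth was 2031518 and 1957674 reads in total RNA and 2960255 and 2124895 reads in footprints, of which Rn45s took 2.49% and 6.46% in total RNA and 46.3% and 41.3% in footprints. Without Rn45s, 1 read was worth 0.505 and 0.546 CPM in total RNA and 0.63 and 0.803 CPM in footprints.

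The sequences of 6 genes are shown first as examples of base composition, and they are not the most extreme members. Of the features measured, base composition of the coding sequence had the strongest rank correlation with the ratio on the CPM scale. Each line holds 20 codons around the middle of the coding sequence, 5′ to 3′, from GENCODE vM21 on GRCm38, and capitals mark G or C at the third base of a codon. The first 3 genes had a high ratio and the last 3 a low one.
Klf2: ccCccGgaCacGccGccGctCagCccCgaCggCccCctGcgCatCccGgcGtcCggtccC
Hist2h3c1: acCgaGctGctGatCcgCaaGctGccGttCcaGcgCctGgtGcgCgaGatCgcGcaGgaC
Utf1: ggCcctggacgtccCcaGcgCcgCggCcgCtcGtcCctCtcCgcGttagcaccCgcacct
Mki67: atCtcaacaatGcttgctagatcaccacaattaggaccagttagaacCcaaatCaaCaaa
Cenpe: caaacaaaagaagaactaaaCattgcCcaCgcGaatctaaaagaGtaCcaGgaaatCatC
Zfp97: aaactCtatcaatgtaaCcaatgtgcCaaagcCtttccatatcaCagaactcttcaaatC
These windows lie at chr8:72319855-72319914 (plus strand), chr3:96247060-96247119 (plus), chr7:139944354-139944413 (plus), chr7:135698507-135698566 (minus), chr3:135242483-135242542 (plus) and chr17:17145030-17145089 (plus), each within 1 coding exon. G or C stood at the third base in 19, 20 and 13 of the 20 codons of Klf2, Hist2h3c1 and Utf1 and in 5, 9 and 6 of those of Mki67, Cenpe and Zfp97. Over the whole coding sequence GC was 70.6%, 69.1% and 65.5% in the first group and 46%, 42.8% and 37.9% in the second. Some members with more extreme ratios went the other way. Coding GC was 46.9% in Churc1, which had a high ratio, and 56.1% in Zfp488, which had a low one.

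The ratio spread widely over the members. Each gene's log2(CPM + 1) in footprints less that in total RNA was set against the median member, which stood at −0.32, so that 0 marks the typical gene. The 5th and 95th percentiles were −2.31 and 1.87, equal to 0.202-fold and 3.65-fold of the median ratio, and the middle 50% of members, from the 25th to the 75th percentile, lay between −0.83 and 0.77. A limma-trend fit over all 8 libraries called 2859 members higher and 2722 lower at a Benjamini-Hochberg adjusted p below 0.05, where the background over the 12893 genes tested was 25.7% higher and 21.9% lower. The members' shares, 27.5% and 26.2%, were near that background. With no centring the split was 2033 higher and 3737 lower, so a call here says above or below the typical gene and nothing of absolute load, and every log2 ratio is 0.32 lower without centring. Among the called members 1921 were at least 2-fold higher and 2036 at least 2-fold lower, and the median standard error was 0.277. In 4156 members both footprint libraries lay above both total RNA libraries after centring, and in 4115 both lay below. Over all 12893 genes tested these counts were 5170 and 4590, so such order was common and not particular to the members.

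**Figure D1:**
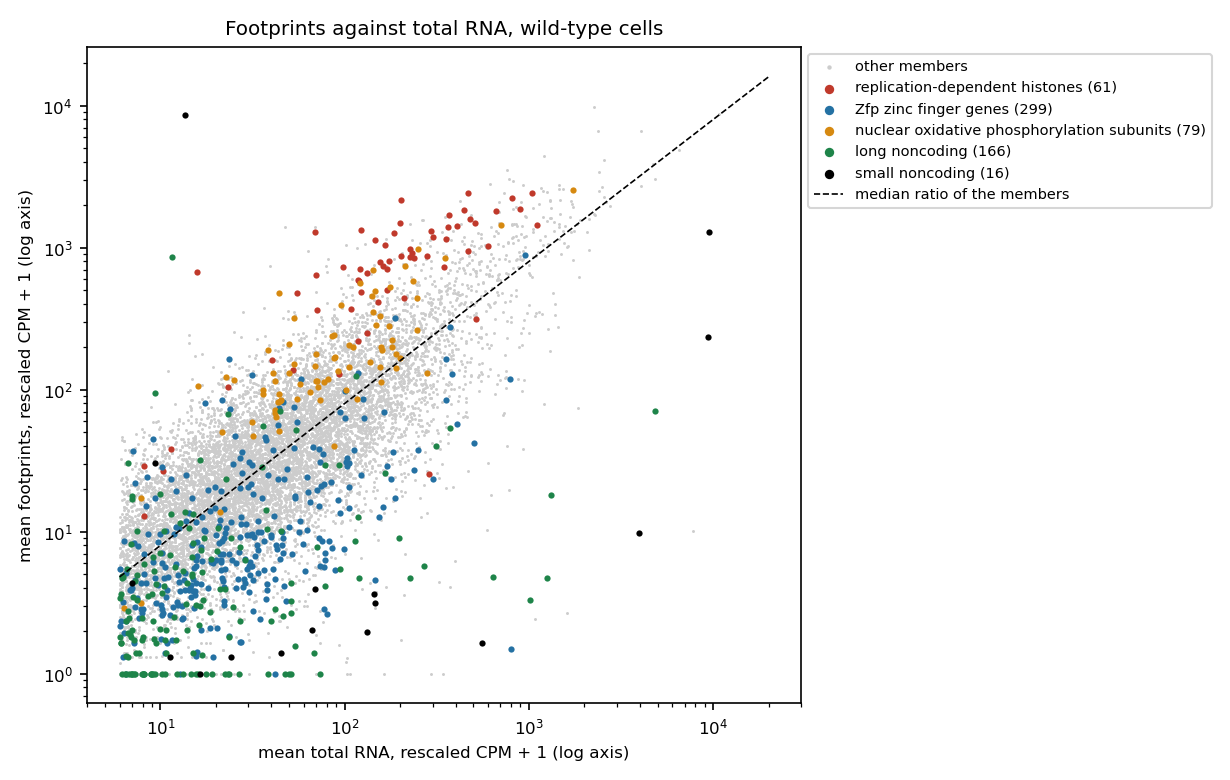
Mean footprint CPM + 1 (vertical, log axis) against mean total RNA CPM + 1 (horizontal, log axis) for each of the 10399 members in wild-type cells; the dashed line is the members' median ratio. Replication-dependent histones (red) and respiratory chain subunits (orange) lie mostly above the line, zinc finger genes (blue), long noncoding (green) and small noncoding (black) RNAs mostly below it.

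Replicate libraries gave the same picture. Across the 10399 members the ratio of replicate 1 and that of replicate 2 had r = 0.895, and each kind of library had r = 0.971 between its replicates, whereas mean footprints against mean total RNA had r = 0.759. These are correlations over genes of the same libraries and carry no test. The knockout libraries, which share no sample with wild type, gave ratios with r = 0.911 to the wild-type ones. Of the members called higher in wild type, 2799 of 2859 also lay above the median member in the knockout, and of those called lower, 2671 of 2722 also lay below.

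**Figure D2:**
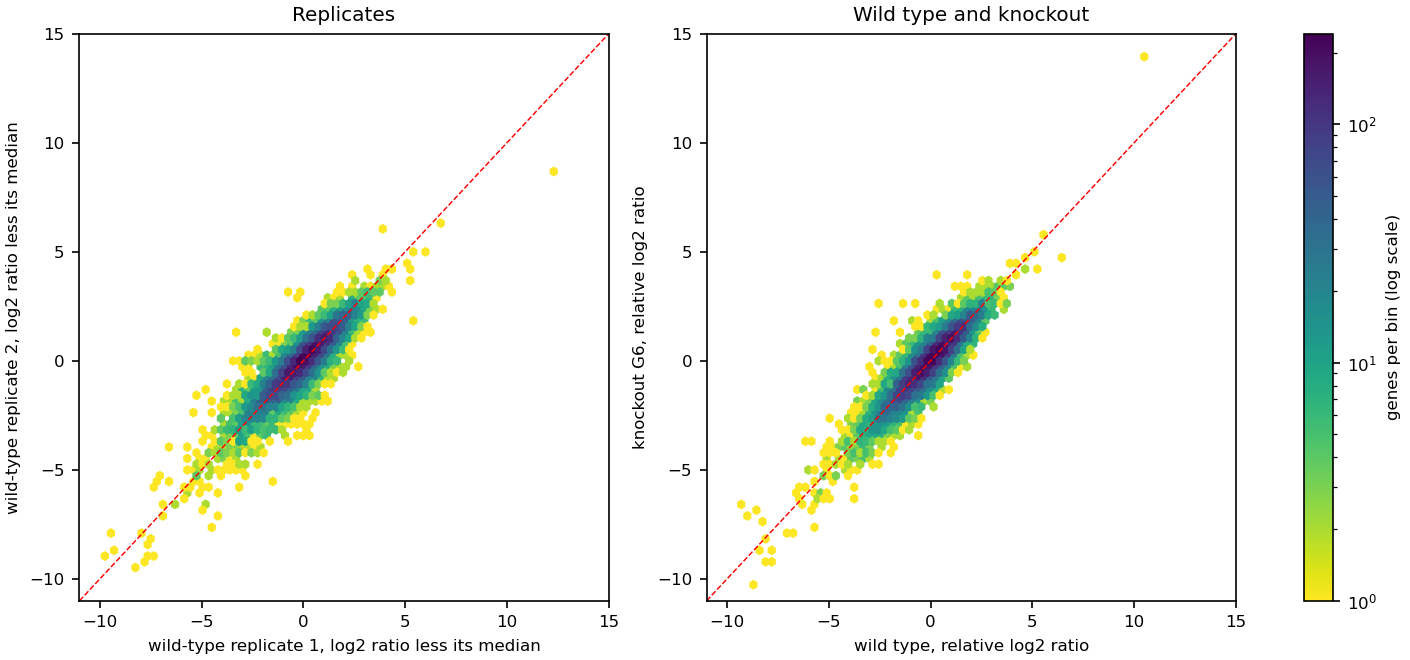
Log2 footprint to RNA ratio of the 10399 members, replicate 2 against replicate 1 of wild type (left) and knockout clone G6 against wild type (right), both relative to the median member; darker bins hold more genes on a log scale and the dashed line marks equality. Members lie along the line in both panels, with r = 0.895 and 0.911.

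Classes of RNA differed in their ratio. Coding genes had a median of 0.02, with 2836 of 10138 higher and 2562 lower. Long noncoding RNAs had a median of −2.03, with 107 of 166 lower and 10 higher, and small noncoding RNAs a median of −4.31, with 13 of 16 lower and 2 higher. Pseudogenes had a median of −1.53, with 34 of 58 lower and 9 higher. As a share of the library, coding genes made up 95.5% of both total RNA libraries and 98.1% and 97.8% of footprints, while long noncoding RNAs fell from 1.39% and 1.51% to 0.275% and 0.322%. Footprints were at 0 in both libraries for 118 members, of which 66 are coding, and in 1 library for 149.

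Malat1, the abundant RNA of nuclear speckles (chromosome 19, 5795690 to 5802672, minus strand), stood at 4506 and 5137 CPM in total RNA and at 66 and 72.8 CPM in footprints (log2 ratio −5.77 ± 0.18, limma-trend with Benjamini-Hochberg adjusted p = 1.76e-13). Xist, the RNA that coats the inactive X chromosome, stood at 58.9 and 85.7 CPM in total RNA and at 0 and 0 CPM in footprints, and Kcnq1ot1, which silences an imprinted cluster, at 1149 and 1487 CPM in total RNA and at 9.1 and 25.2 CPM in footprints. In each of these the footprint libraries lay far below both total RNA libraries. Xist had no footprint read, so no fold is given for it. Of its exonic positions 12.6% are shared with other genes, among them Tsix on the opposite strand, and strand use in counting is not given. Tug1 and Rian, 2 further long noncoding RNAs, had log2 ratios of −5.26 and −5.25, and 17 of the 18 listed long noncoding RNAs were lower, with a median of −3.77.

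Small structured RNAs were lower too, 12 of 15, with a median of −3.92. Rpph1, the RNA of the tRNA-trimming enzyme RNase P, stood at 9266 and 9492 CPM in total RNA and at 223 and 244 CPM in footprints, and 73.0% of its exonic positions are shared with Ccnb1ip1. Snord17 and Scarna6, guides of RNA modification, had log2 ratios of −8.21 and −5.21. Rprl3, annotated as RNase P RNA-like, stood at 3742 and 4161 CPM in total RNA and at 3.21 and 14.5 CPM in footprints (log2 ratio −8.61), and Rprl2 had −5.94. Above the median lay Rnu12, an RNA of the minor spliceosome (log2 ratio 2.07 ± 0.43), and the vault RNA Vaultrc5 (log2 ratio 2.67 ± 0.48), both at under 12 CPM in total RNA. Sp3os (1.70) and Snhg3 (1.61), the latter with 86.3% of its exonic positions shared with other genes, were the other noncoding genes named in that direction by the rule, which leaves out predicted genes and clone names.

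The snoRNA host genes carry snoRNAs in their introns, and the spliced RNAs of some of them are exported to the cytoplasm. Where the RNAs of this list lie in the cell was not measured. Of 11 members 7 were lower and 1 higher, with a median of −1.17. Gas5, a host gene whose RNA begins with a run of pyrimidines after the cap, stood at 196 and 197 CPM in total RNA and at 8.82 and 7.18 CPM in footprints (log2 ratio −4.14 ± 0.21, limma adjusted p = 5.42e-11). Snhg5, at 96.6 and 87 CPM in total RNA and at 25.8 and 31.3 CPM in footprints, was less far below the median (−1.33). Of the exonic positions of Gas5 17.8% are shared with other genes, among them Snord80 on the same strand, and of those of Snhg5 8.32%. How far reads of such genes enter the host rows was not tested.

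A few rows of predicted genes or clone names, which the naming rule leaves out, stood at the extremes and were chosen after their values were seen. Gm25018, a 119-base noncoding gene (chromosome 8, 123565969 to 123566087), stood at 1.01 and 24 CPM in total RNA and at 8229 and 9028 CPM in footprints (log2 ratio 10.57). Only the row of Rn45s was dropped as ribosomal RNA, and whether this row also holds ribosomal RNA was not tested. The long noncoding 2700038G22Rik stood at 8.05 and 13 CPM in total RNA and at 749 and 980.0 CPM in footprints (log2 ratio 6.57). Gm20594, annotated as coding, went the other way, at 8825 and 6691 CPM in total RNA and at 6.93 and 11.2 CPM in footprints (log2 ratio −9.28), and 46.1% of its coding words are found in transcripts of other genes.

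Histones had the highest median of the 36 lists with members. Replication-dependent histones, made in S phase from mRNAs that end in a stem-loop in place of a poly(A) tail, had 58 of 61 members higher and 1 lower, with a median of 2.30, where all coding members had 0.02. Their share of the library was 1.61% and 1.57% in total RNA and 5.85% and 5.19% in footprints. By kind, the medians were 2.44 over 16 H2A genes, 2.42 over 13 H4 genes, 2.39 over 11 H3 genes, 2.05 over 16 H2B genes and 1.39 over 5 H1 linker histone genes. Hist2h3c1, an H3 gene, stood at 179.8 and 223 CPM in total RNA and at 2354 and 1958 CPM in footprints (log2 ratio 3.74 ± 0.15, limma adjusted p = 3.12e-12), and Hist1h2bm, an H2B gene, at 67 and 70.9 CPM in total RNA and at 666 and 623 CPM in footprints (log2 ratio 3.53 ± 0.15, limma adjusted p = 6e-12). The groups did not overlap in either gene.

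Single histone genes are uncertain because their coding sequences are near copies of each other. Hist1h4j stood at 18 and 11.7 CPM in total RNA and at 1005 and 337 CPM in footprints, the highest ratio among the coding genes named by the rule (5.55), while Hist1h4m, of which 100% of 24-base coding words occur in other genes, stood at 254 and 319 CPM in total RNA and at 28.4 and 20.8 CPM in footprints (−3.17). Reads of such genes can be split differently in the libraries, and the summed share above does not depend on that split among histones. With the trend with coding GC removed, the histone median was 0.93, with 48 of 61 higher and 2 lower, and the median GC of their coding sequences was 65.1%. The variants made throughout the cycle had 9 of 10 higher and a median of 1.09 (4 of 10 and 0.52 with the GC trend removed, 9 of 10 and 1.85 per base), led by H2afx, the damage-marked H2A variant, at 261 and 251 CPM in total RNA and at 1145 and 1005 CPM in footprints (2.39).

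The stem-loop letters of the histone mRNAs are shown because that element, bound by SLBP, is known to take the place of the poly(A) tail in translation. Capitals mark the motif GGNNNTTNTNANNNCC, searched on the transcript strand after the stop codon.
Hist1h2bm: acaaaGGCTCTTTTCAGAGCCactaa
Hist2h3c1: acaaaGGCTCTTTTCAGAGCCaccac
They lie at chr13:21722501-21722526 and chr3:96247322-96247347, both on the plus strand, 27 and 30 bases after the stop codon. The motif was found in 42 of 61 replication-dependent histones (68.9%) and in 280 of all 10112 coding members with a coding sequence (2.77%). Its histone carriers had a median ratio of 2.26 and the histones without a match 2.31. The search covered only annotated sequence after the stop codon, and Hist1h2ai and Hist1h3h have 0 annotated bases there. These medians therefore do not compare histones with and without a stem-loop.

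Ribosomal proteins, whose mRNAs are grouped by a pyrimidine run at the cap that responds to mTOR, were moderately above the median. Of 47 large-subunit genes 30 were higher and 4 lower, with a median of 0.60, and of 32 small-subunit genes 21 were higher and 3 lower, with a median of 0.73. Rps16 stood at 383 and 319 CPM in total RNA and at 1639 and 1652 CPM in footprints (log2 ratio 2.56 ± 0.14, limma adjusted p = 1.63e-10), Rplp2, a stalk protein, at 898 and 744 CPM in total RNA and at 3241 and 2658 CPM in footprints (2.17), and Rpl31 at 950.2 and 905 CPM in total RNA and at 249 and 289 CPM in footprints (−1.46). This list depends on the scaling. Quantile normalization gave 16 higher and 17 lower for the large subunit (median −0.03) and 14 higher and 13 lower for the small (median 0.07), and per base the large subunit had 23 higher and 11 lower (median 0.30). Many of these genes share their coding words with processed copies (100% in Rps16). A C followed by 4 pyrimidines at the annotated 5′ end was found in 8 of the 79 genes and in 226 of 10112 coding members (2.23%), with a median ratio of 0.10 in the latter, and annotated ends need not be the ends used in these cells.

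Mitochondrial ribosomal proteins are made in the cytosol from nuclear genes. Of 77 members 42 were higher and 2 lower, with a median of 0.68, among them Mrpl43 (2.68) and Mrps12 (2.49). Nuclear subunits of oxidative phosphorylation went further, with 67 of 79 higher, 2 lower and a median of 1.24. Uqcrq, a subunit of complex III, stood at 30.8 and 54.7 CPM in total RNA and at 544 and 411 CPM in footprints (log2 ratio 3.82 ± 0.22, limma adjusted p = 2.49e-10), and Atp5g3, a ring subunit of ATP synthase, at 125 and 115 CPM in total RNA and at 616 and 507 CPM in footprints (2.53). Cox5a and Cox7c, of cytochrome c oxidase, had 2.29 and 2.13. Both footprint libraries were above both total RNA libraries in all 4.

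Factors of translation were split. Initiation factors had 22 of 40 higher and 9 lower, with a median of 0.42 (0.28 per base, 0.22 under quantile normalization). Eif3f and Eif3k, of the scaffold that binds the small subunit, had 2.46 and 1.62, and Eif1, which guards start codon choice, had 1.74. Eif4a2, a helicase paralog, stood at 1266 and 1261 CPM in total RNA and at 251 and 280.2 CPM in footprints (log2 ratio −1.92 ± 0.13, limma adjusted p = 1.4e-09), and the snoRNA gene Snora81 lies within its annotated exons. Elongation and termination factors had 12 of 19 higher and 4 lower, with a median of 0.73 (0.45 under quantile normalization). That list is broader than its name and also counts Pabpc4 (1.84) and Gnb2l1 (1.10). Eef1a1, which brings aminoacyl-tRNA to the ribosome, stood at 11215 and 10237 CPM in total RNA and at 8199 and 9373 CPM in footprints and was not called (log2 ratio 0.04 ± 0.12, limma adjusted p = 0.832), with libraries that overlapped after centring. Eef2, the translocase, was higher (0.42, limma adjusted p = 0.00817), although the sign turned under quantile normalization, the GC correction and the length correction. Pabpc1, the poly(A)-binding protein, stood at 635 and 650.5 CPM in total RNA and at 1298 and 1124 CPM in footprints (1.23), whereas Abce1, the recycling factor, had −1.08.

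Aminoacyl-tRNA synthetases charge tRNAs in the cytosol or in mitochondria. Of 22 cytosolic genes 15 were higher and 1 lower, with a median of 0.61, led by Vars, for valine, at 109.7 and 108 CPM in total RNA and at 545 and 503 CPM in footprints (2.58). Of 17 mitochondrial ones 3 were higher and 1 lower, with a median of 0.000365. Footprints set per base of coding sequence and RNA per base of transcript gave 6 higher and 7 lower for the cytosolic list (median −0.19), and 2 higher and 3 lower for the mitochondrial one (median −0.45). Quantile normalization gave the cytosolic list 9 higher and 2 lower (median 0.24), and with the GC trend removed 0 of 17 mitochondrial genes were called (median −0.22). Of the 5 genes of tRNA m3C modification none was called in wild type at an adjusted p below 0.05 by limma-trend, and 1 had an unadjusted p below 0.05. Mettl6 itself stood at 26.3 and 29 CPM in total RNA and at 6.3 and 11.2 CPM in footprints (log2 ratio −1.27 ± 0.55, limma adjusted p = 0.0638). Its limma adjusted p was below 0.05 in 5 other settings, among them the fit of the 4 wild-type libraries alone (0.00622), a pseudocount of 5 (0.00889) and the replicate block (0.0444), and ran to 0.81 over all settings. In the main fit the spread for Mettl6 also comes from the libraries of cells in which this gene was knocked out. Mettl2 had −0.07, and Sars, the seryl-tRNA synthetase, had 0.32.

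Housekeeping enzymes and the cytoskeleton lay above the median. All 15 tubulin, actin and actin-regulator genes on the list were higher, with a median of 1.44, from Tuba1a (0.52) to the actin-binding Pfn1 (3.01). Actb stood at 2389 and 2367 CPM in total RNA and at 6599 and 6702 CPM in footprints (log2 ratio 1.81 ± 0.11, limma adjusted p = 3.72e-10). Glycolysis enzymes had 16 of 20 higher and 0 lower, with a median of 1.11, which was 0.58 with the GC trend removed (14 higher, 0 lower) and 0.68 under quantile normalization (14 higher, 2 lower). Gapdh stood at 2253 and 2268 CPM in total RNA and at 10100.0 and 9482 CPM in footprints (log2 ratio 2.44 ± 0.11, limma adjusted p = 2.24e-11) and Eno1, enolase, had 2.89, both with over 90% of coding words shared with copies elsewhere. Enzymes of serine, glycine and one-carbon metabolism had 14 of 21 higher and 1 lower, with a median of 0.70 (10 and 2, 0.38, per base), among them Shmt2 (1.97) and Tdh, a threonine dehydrogenase used by mouse stem cells (1.47).

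Proteins that fold, degrade or leave the cell were above the median as well. Proteasome subunits had 21 of 35 higher and 0 lower, with a median of 0.73, and per base 15 higher and 7 lower, with a median of 0.26. Cytosolic and mitochondrial chaperones had 17 of 29 higher and 1 lower, with a median of 0.51, a result that depends on the setting. The median was 0.04 per base (9 of 28 higher, 7 lower), 0.08 under quantile normalization (8 of 29 higher, 6 lower) and 1.02 with the GC trend removed (27 of 28 higher, 0 lower). Genes of folding in the endoplasmic reticulum had 14 of 28 higher and 4 lower, with a median of 0.42 (0.66 with the GC trend removed, 0.23 under quantile normalization), among them the chaperone Calr (1.17). Hspb1, a small heat shock protein, stood at 126 and 131 CPM in total RNA and at 1159 and 946 CPM in footprints (3.34). Extracellular matrix and basement membrane genes had 18 of 22 higher and 1 lower, with a median of 1.49 (0.98 with the GC trend removed, 0.93 per base) and a median coding length of 4398 bases. Hspg2, which encodes perlecan, stood at 108 and 93 CPM in total RNA and at 1172 and 913 CPM in footprints (log2 ratio 3.68 ± 0.15, limma adjusted p = 3.44e-12), and Fn1, fibronectin, at 829.8 and 729 CPM in total RNA and at 3192 and 2855 CPM in footprints (2.28). In both, each footprint library was above each total RNA library. Feeder markers were also higher in footprints than in total RNA, as given above, and their part in this was not tested.

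Pluripotency factors hold stem cells in their undifferentiated state, and on their list 18 of 33 were higher and 6 lower, with a median of 0.57. The list is broader than that role and also counts Trp53, which encodes p53 (2.36). With the GC trend removed 13 were higher and 6 lower (median 0.19), and under quantile normalization 15 and 8 (median 0.30). Klf2, a Krüppel-like factor of the naive state (chromosome 8, 72319033 to 72321656, plus strand), stood at 63.7 and 60.2 CPM in total RNA and at 1057 and 850.2 CPM in footprints (log2 ratio 4.24 ± 0.14, limma adjusted p = 4.55e-13). Utf1, a chromatin factor of stem cells, stood at 14.7 and 12 CPM in total RNA and at 224 and 201 CPM in footprints (log2 ratio 4.22 ± 0.24, limma adjusted p = 2.01e-10), and Klf5 had 3.68. The core factors were closer to the median. Pou5f1, which encodes OCT4, stood at 486 and 435 CPM in total RNA and at 770.3 and 729.7 CPM in footprints (1.03), Sox2 at 276 and 305 CPM in total RNA and at 698 and 559 CPM in footprints (1.43), and Nanog at 1345 and 1297 CPM in total RNA and at 1985 and 1825 CPM in footprints (0.85). Esrrb, a nuclear receptor, had 0.57, which turned to −0.13 once the GC trend was removed.

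Chromatin genes went both ways. Polycomb and NuRD genes had 14 of 28 higher and 6 lower (7 and 7 per base), with Mbd3, a NuRD subunit, at 2.68 and Mtf2, a Polycomb-like protein, at 732 and 775 CPM in total RNA and at 108 and 158 CPM in footprints (log2 ratio −2.19 ± 0.16, limma adjusted p = 3.36e-09). Among 12 DNA methylation enzymes 4 were higher and 2 lower, with a median of 0.31 that turned to −0.34 with the GC trend removed and to −0.38 per base. Tet1 and Tet2, which oxidise methylcytosine, stood far below the median, Tet1 at 785 and 962 CPM in total RNA and at 101 and 132 CPM in footprints (log2 ratio −2.57 ± 0.16, limma adjusted p = 4.45e-10) and Tet2 with −1.32. Uhrf1, which guides maintenance methylation, and Dnmt3l had 1.17 and 1.54.

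Cell cycle genes differed by phase list, though less so with the GC trend removed. S phase genes had 21 of 40 higher and 4 lower, with a median of 0.52, among them the licensing factor Cdt1 (2.26) and the polymerase subunit Pola2 (3.19). The S phase list had 16 higher and 10 lower per base (median 0.29). With the GC trend removed it had 26 higher and 2 lower (median 0.60). Mitosis genes had 9 of 33 higher and 14 lower, with a median of −0.11. Mki67, the Ki-67 protein of mitotic chromosome surfaces, stood at 727 and 743 CPM in total RNA and at 66.1 and 69 CPM in footprints (log2 ratio −3.10 ± 0.12, limma adjusted p = 3.27e-12). The kinetochore motor Cenpe stood at 249 and 293 CPM in total RNA and at 27.1 and 43.3 CPM in footprints (−2.62) and Cenpf had −1.75, while Cdc20, which activates the anaphase ubiquitin ligase, had 1.53. With the GC trend removed the mitosis list turned to 17 higher and 4 lower (median 0.44), while per base it had 7 higher and 18 lower (median −0.75). Its median coding GC was 46.8%.

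**Figure D3:**
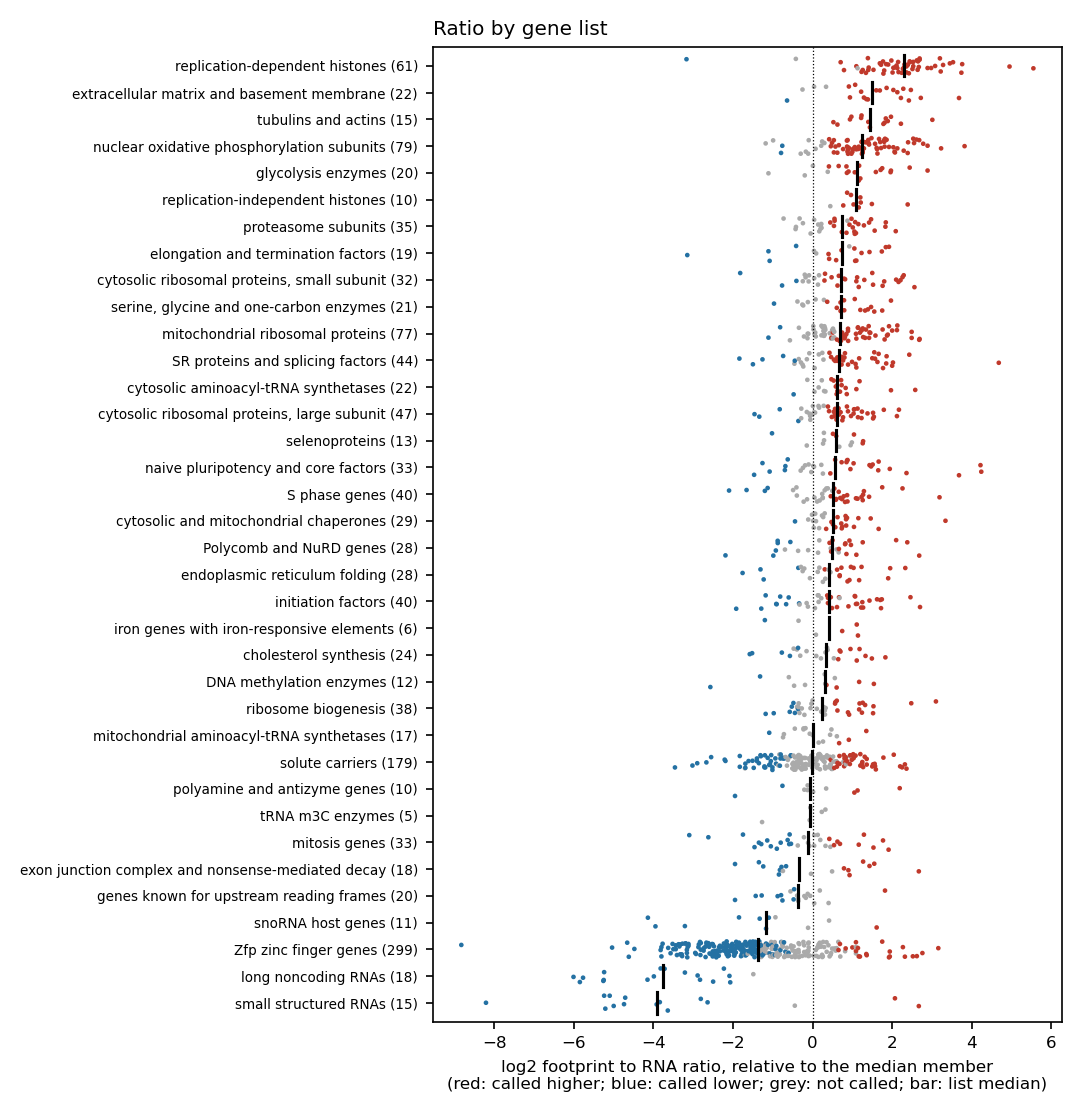
Log2 footprint to RNA ratio relative to the median member (horizontal) for every member of each gene list (rows, number of members in brackets); red points were called higher, blue lower, grey not called, and the black bar is the list's median. Medians run from −3.92 for small structured RNAs to 2.30 for replication-dependent histones.

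Factors of RNA surveillance went both ways. In nonsense-mediated decay, which removes mRNAs with early stop codons, and the exon junction complex that marks splice sites, 7 of 18 were higher and 8 lower (median −0.35, and 0.17 with the GC trend removed). The helicase Upf1 stood at 81.9 and 75.5 CPM in total RNA and at 367 and 444 CPM in footprints (log2 ratio 2.67 ± 0.15, limma adjusted p = 1.79e-10). Smg1, the kinase that phosphorylates it, stood at 582 and 618 CPM in total RNA and at 129.6 and 116 CPM in footprints (log2 ratio −1.95 ± 0.14, limma adjusted p = 2.66e-09). The coding GC of Upf1 was 57.7% and that of Smg1 45.7%. SR proteins and splicing factors had 28 of 44 higher and 5 lower, with a median of 0.68 (21 and 11, 0.32, under quantile normalization), among them Hnrnpl, an RNA-binding splicing regulator (2.02). Pcbp1, a poly(C)-binding protein of a single-exon gene, stood at 52.6 and 83.2 CPM in total RNA and at 1452 and 1364 CPM in footprints (4.71).

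Zinc finger genes named Zfp, many of them DNA-binding repressors with arrays of C2H2 fingers, were the largest list below the median. Of 299 members 173 were lower and 21 higher, with a median of −1.37, and their share of the library was 1.58% and 1.64% in total RNA and 0.652% and 0.645% in footprints. Zfp97 stood at 335 and 263 CPM in total RNA and at 21.7 and 23.2 CPM in footprints (log2 ratio −3.34 ± 0.18, limma adjusted p = 7.48e-11), Zfp106 at 797 and 789 CPM in total RNA and at 106 and 129 CPM in footprints (−2.42) and Zfp292 at 395 and 421 CPM in total RNA and at 51 and 61.8 CPM in footprints (−2.51). The footprint libraries were below both total RNA libraries in all 3. Removing the GC trend left 122 of 297 lower and 17 higher, with a median of −0.79. Setting values per base left 187 of 297 lower and 25 higher, with a median of −1.51.

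Several coding genes had RNA and almost no footprints. CPM per gene does not show whether that RNA holds the coding sequence. Cmah, an enzyme of sialic acid synthesis, stood at 822 and 1342 CPM in total RNA and at 1.89 and 0.931 CPM in footprints, Cd84, a receptor of blood cells, at 258 and 424 CPM in total RNA and at 0 and 0 CPM in footprints, and Zfp488 at 782 and 808 CPM in total RNA and at 0.964 and 0 CPM in footprints. Olfr613, an odorant receptor, and Vmn1r58, a pheromone receptor, stood at 155 and 172 CPM in total RNA and at 0 and 0 CPM in footprints and at 64.7 and 73.9 CPM in total RNA and at 0 and 0 CPM in footprints. Footprints were at 0 or under 2 CPM in all 5. No exonic position of these 5 is shared with another gene in GENCODE, but 68.1% of the coding words of Vmn1r58 occur in transcripts of other genes. Ttn, the giant muscle protein titin, stood at 704 and 844 CPM in total RNA and at 12.6 and 24.9 CPM in footprints (−5.04).

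**Figure D4:**
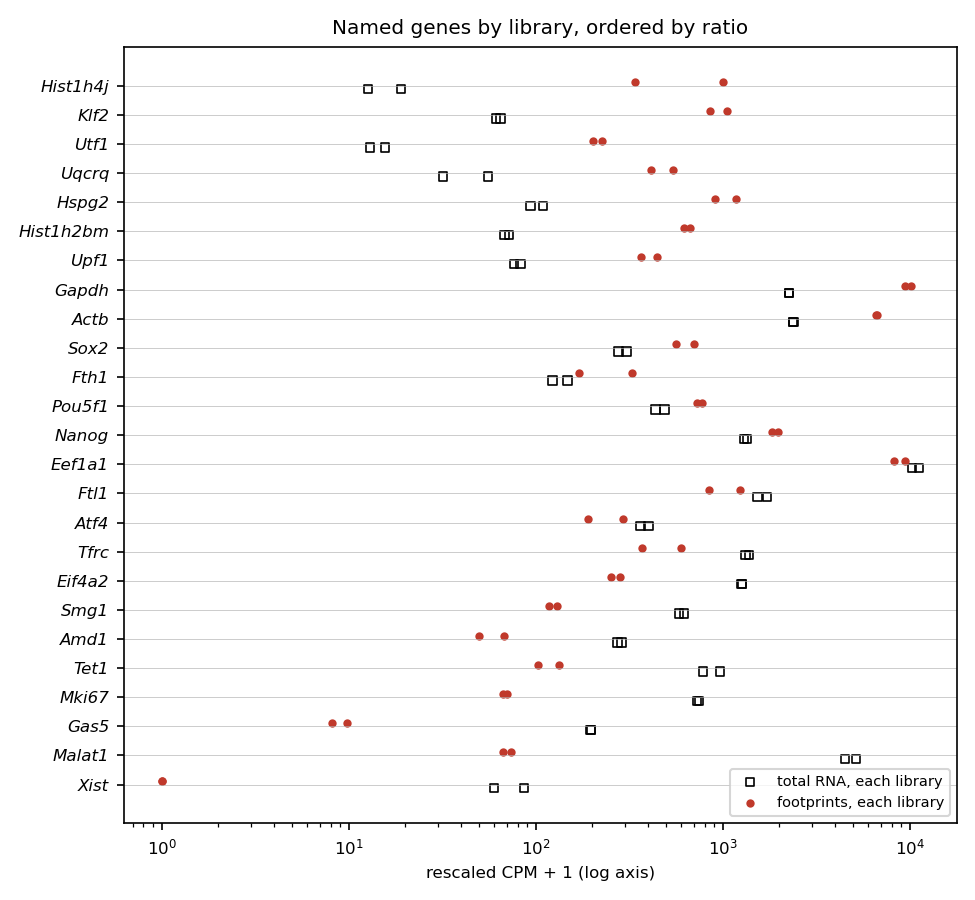
CPM + 1 (horizontal, log axis) of 25 named genes in each wild-type library, ordered by ratio; open squares are total RNA and red points footprints. Footprints lie right of total RNA for Hist1h4j, Klf2 and Utf1 and left of it for Mki67, Gas5, Malat1 and Xist.

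Upstream start codons went with a lower ratio. The 4636 coding members with no ATG in the annotated 5′ UTR had a median of 0.25, with 1595 higher and 867 lower. The median was −0.07 with 1 ATG, −0.17 with 2, −0.28 with 3 and −0.20 with 4. The 754 members with at least 5 had a median of −0.52, with 131 higher and 293 lower. Per base the ends of this order were 0.19 and −0.36, and with the GC trend removed 0.20 and −0.44. Members with more ATGs also had longer 5′ UTRs (median 115 bases with none and 564.5 with at least 5). The letters around the main start codon went with smaller differences, with medians of 0.10 for G, −0.01 for A, −0.03 for C and −0.24 for T at the third base before the ATG.

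Genes known for translational control by upstream reading frames had 1 of 20 higher and 8 lower, with a median of −0.38. For 3 members the shortest upstream frame that ends within the 5′ UTR is shown, with the ATG in capitals. Upstream frames are what the control is known to use, but the one shown need not be the one that lowers translation. Atf4 has 3 upstream ATGs, and a frame that runs into the coding sequence was not searched for.
Atf4: ATGgcgtattag
Amd1: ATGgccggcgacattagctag
Cebpg: ATGtga
They lie at chr15:80255582-80255593 (plus strand), chr10:40302155-40302175 (minus) and chr7:35050923-35050928 (minus), beginning 196, 317 and 92 bases before the main start codon. The frame of Amd1, an enzyme of polyamine synthesis, has 6 codons before its stop and is known in mammals to stall ribosomes when polyamines are plentiful. Amd1 stood at 273 and 287 CPM in total RNA and at 48.5 and 66.6 CPM in footprints (log2 ratio −1.95 ± 0.18, limma adjusted p = 8.47e-08), with no overlap, though 100% of its coding words occur elsewhere. Atf4, the stress regulator, stood at 399 and 362 CPM in total RNA and at 294 and 189 CPM in footprints and was not called (log2 ratio −0.36 ± 0.17, limma adjusted p = 0.0861). Cebpg, its partner, stood at 51.1 and 66.2 CPM in total RNA and at 21.2 and 16 CPM in footprints (−1.28), a sign that the length correction turned to 0.99. Atf5, another stress regulator with upstream frames, was the 1 higher member, at 6.57 and 7.11 CPM in total RNA and at 26.5 and 16.9 CPM in footprints (1.82). Of the 10 polyamine and antizyme genes 3 were higher and 2 lower, with a median of −0.06 that turned to 0.24 with the GC trend removed and to 0.54 per base. Odc1 and Azin1, which answer to polyamines, had −0.21 and −0.12 and were not called, while Oaz1, the antizyme read through a frameshift, had 1.13.

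Iron-responsive loops bind IRP proteins when iron is low, which blocks initiation when the loop is in the 5′ UTR and stabilises the mRNA when it is in the 3′ UTR. Windows of 30 bases around the loop are shown for both ferritin chains and the transferrin receptor, with the motif CNNNNNCAGTGN in capitals.
Fth1: ggtttcctgCTTCAACAGTGCttgaacgga
Ftl1: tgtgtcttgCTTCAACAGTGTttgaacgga
Tfrc: gataattatCGGAAGCAGTGCcttccataa
They lie at chr19:9982729-9982758 (plus strand), chr7:45459781-45459810 (minus) and chr16:32631216-32631245 (plus), and the 3′ UTR of Tfrc holds 5 matches. The letters alone are common, in the 5′ UTR of 8.08% and the 3′ UTR of 38.7% of coding members. Of the 6 listed iron genes 3 were higher and 1 lower, with a median of 0.41 (0.23 with the GC trend removed, −0.12 per base). Fth1, the ferritin heavy chain, stood at 147 and 122 CPM in total RNA and at 328 and 170.1 CPM in footprints (log2 ratio 1.14 ± 0.22, limma adjusted p = 0.000365). Ftl1, the light chain, stood at 1728 and 1531 CPM in total RNA and at 1230.1 and 839 CPM in footprints and was not called (log2 ratio −0.35 ± 0.15, limma adjusted p = 0.0559), and its exons overlap Gm10252 on the other strand. Tfrc stood at 1324 and 1376 CPM in total RNA and at 368 and 595 CPM in footprints (log2 ratio −1.20 ± 0.16, limma adjusted p = 7.75e-06), and its ratio turned to 0.03 with the GC trend removed.

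Selenoproteins read a UGA stop codon as selenocysteine, and 5 of 13 were higher and 1 lower, with a median of 0.59, against 1 higher and 2 lower with the GC trend removed (median 0.32). Per base the median was 0.39 and under quantile normalization 0.34. Gpx4, which reduces lipid peroxides, stood at 302 and 280.1 CPM in total RNA and at 365 and 336 CPM in footprints (log2 ratio 0.59 ± 0.13, limma adjusted p = 0.000998), and Selt had −1.02. Solute carriers, 179 in number, were centred near the typical gene, with 38 higher, 40 lower and a median of −0.03. Per base 46 of 177 were higher and 26 lower, and with the GC trend removed 23 and 39. Slc2a1, the glucose transporter, had 1.59 and Slc5a3, the inositol transporter, −3.46. Cholesterol synthesis genes had 9 of 24 higher and 5 lower, with Fdps (1.83) and Idi1 (−1.52) at the ends among those named. Ribosome biogenesis genes had 15 of 38 higher and 7 lower (9 and 16 per base, 18 and 3 with the GC trend removed), led among those named by Fbl, the rRNA methyltransferase fibrillarin (2.48).

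Sequence composition and length moved with the ratio over 10112 coding members. GC of the coding sequence had Spearman's rho = 0.553, and the median ratio was −0.96 in the 2023 genes with the lowest GC (median 43.9%) and 0.88 in the 2023 with the highest (median 60%). Transcript length had rho = −0.422, 3′ UTR length −0.35, coding length −0.286 and the number of upstream ATGs −0.205 (9776 genes with a 5′ UTR). The median was 0.50 at a median coding length of 540 bases and −0.44 at 3573 bases. Per base, the rho of coding length was −0.554, that of GC 0.452 and that of 3′ UTR length 0.0773. The level of total RNA, which is part of the ratio, had rho = −0.123, and the share of coding words found in other genes 0.0286. Genes share libraries and these features move together, so no test is given, and the source of the relation with GC was not tested.

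**Figure D5:**
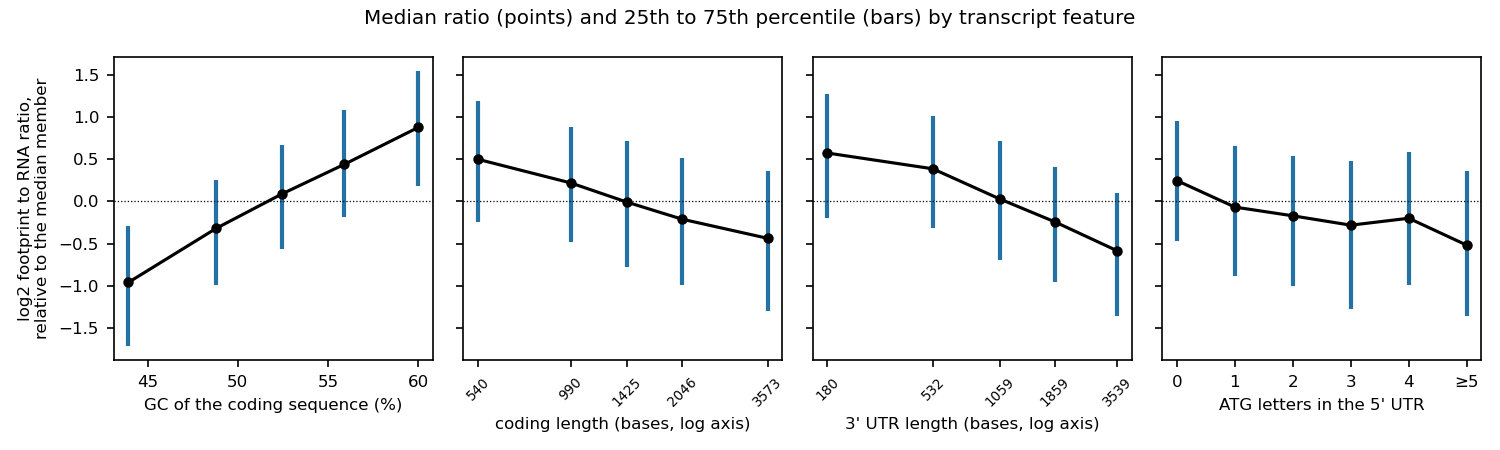
Median log2 footprint to RNA ratio relative to the median member (points) with the 25th to 75th percentile (bars) for coding members, in 5 equal groups by coding GC, coding length and 3′ UTR length and by the number of ATGs in the 5′ UTR. The median climbs from −0.96 to 0.88 with GC and drops from 0.50 to −0.44 with coding length, from 0.57 to −0.59 with 3′ UTR length and from 0.25 to −0.52 with upstream ATGs.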

How the data were processed

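Total RNA and ribosome footprints were measured in wild-type and Mettl6 knockout J1 cells, 8 libraries in 4 groups of 2, grouped by library title. Per the submitters' processing notes, CASAVA 1.8.2, Bowtie2, RSEM and mm10 were used. The sources used here do not give alignment settings, other versions or strand use. The authors deposited CPM per gene symbol (23818 symbols) and no counts. On the smallest step of each library 89.2% and 89.5% of wild-type total RNA values and 67.3% and 72.7% of wild-type footprint values were whole reads within 0.01 read, so counts were not recovered.

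Rn45s was dropped and CPM rescaled. The 12893 genes that averaged 1 CPM or more in the 4 wild-type libraries were tested on log2(CPM + 1) with limma-trend (limma 3.58.1, R 4.3.3) over all 4 groups, 4 residual degrees of freedom, less the median of the members (−0.3246), with Benjamini-Hochberg adjusted p below 0.05 over all genes tested. Errors are standard errors of the log2 ratio. Log2 ratios understate changes of low genes. With 2 libraries a group, p rests on spread shared across genes, and nothing states that the libraries came from separate cultures beyond their titles.

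Named genes were, by rule, the 12 highest and 12 lowest coding and 6 highest and 6 lowest noncoding members past the threshold whose libraries did not overlap, leaving out predicted genes, RIKEN clone names, pseudogenes, LOC names and accessions, up to 4 members of each list with the smallest p, and preset genes. Some genes the rule takes are not reported here. Other genes named were chosen after their values were seen. Members, rule and all 37 lists were chosen with earlier results of these data known. The list of mitochondrially encoded genes had 0 members. GENCODE vM21 on GRCm38 (the assembly behind mm10) supplied transcripts, coordinates and coding sequences, and RefSeq gave gene classes, with 23702 symbols matched. Shared coding words are 24-base words also present in other genes' transcripts. Alternatives changed pseudocount, filter, scaling, block, libraries, length and GC (lowess, span 0.3).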

Additional observations from a re-analysis of the deposited data

Results flagged for a closer look

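Of the named genes, 3 had a footprint to RNA ratio that differed between knockout and wild type. The test was of genotype by kind of library (limma-trend, Benjamini-Hochberg adjusted over all genes tested). Many named genes were picked by their wild-type ratio, and the share of all genes tested that passed is not given here, so the count carries no weight by itself. Rpph1 had a log2 ratio of −5.00 in wild type and −2.63 in the knockout, a difference of 2.37 (adjusted p = 0.00626). Gm20594, chosen after its values were seen, had −9.28 in wild type, the lowest ratio of all members. It had −6.67 in the knockout, a difference of 2.61 (adjusted p = 0.00626). Pabpc1 had 1.23 in wild type and 0.12 in the knockout, a difference of −1.11 (adjusted p = 0.049). The knockout is 1 clone, so genotype and clone cannot be told apart.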

How the results depend on the processing

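Counts of called members stayed within 1.5 times of 2859 higher and 2722 lower under every alternative run. With any 1 wild-type library left out, 2191 to 2370 were higher and 1931 to 2367 lower. The 2 corrections chosen after the data were seen, both over 10112 coding members, gave 2954 higher and 2799 lower per base and 2388 higher and 2109 lower with the GC trend removed. Wild-type libraries alone gave 3044 and 2916, quantile normalization 2806 and 2806, and no centring 2033 and 3737.

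Replicate numbers in the titles do not show that same-numbered libraries were paired. Deviations of same-numbered total RNA and footprint libraries had r = 0.0482 in wild type and 0.0052 in the knockout, and a fit with the replicate block called 2912 higher and 2777 lower.

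Some named genes changed sign, and the cause was not tested. With the GC trend removed these were H2afj (−0.30), Gpx1 (−0.21), Tfrc (0.0275), Dalrd3 (−0.508), Esrrb (−0.13), Eef2 (−0.18), Odc1 (0.18) and Azin1 (1.35). Per base they were Selt (0.30), Cebpg (0.993), Yars2 (−0.29), Dalrd3 (−0.76), Eef1a1 (−0.70), Eef2 (−0.43) and Azin1 (0.63). With no centring they were Sars (−0.00253), Dalrd3 (−0.0938) and Eef1a1 (−0.29), and under quantile normalization Eef1a1 (−0.40) and Eef2 (−0.0141). Eef1a1 also turned with a pseudocount of 5 (−0.0149) and with Rn45s kept (−0.0181). With 1 library left out Eef1a1 ran from −0.068 (without footprint replicate 2) to 0.128 and was also below 0 without total RNA replicate 2 (−0.0101), and Mettl2 ran from −0.19 to 0.0448 (without total RNA replicate 1). Near 5 CPM a gene rests on few reads, and 1 footprint read is worth 0.63 to 0.803 CPM.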
